A study of Mus musculus with 8 samples.

Results

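The immune checkpoint receptors and ligands were taken as 10 genes by their symbols: the receptors Pdcd1, Lag3, Tigit, Havcr2, Ctla4 and Icos, and the ligands Cd274, Pdcd1lg2, Cd80 and Cd86. All 10 were found among the 55536 entries with a gene identifier in the table of liver counts. Livers came from lean wild-type C57BL/6 mice, 2 months old, which had been injected with adenovirus at 0.1 OD and were killed 1 week later after a night without food. In the shEif4ebp3 group (n = 4) the virus carried a short hairpin RNA against Eif4ebp3, a member of the family of proteins that bind the cap-binding factor eIF4E and restrain translation initiation. In the shLacZ group (n = 4) the hairpin was directed at lacZ, a bacterial gene that mice lack. Both groups had thus received virus, and no liver without virus was analysed here. The labels name no sex and do not say whether each library came from a different mouse, and the spread that enters the p-values may therefore be technical.

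T cells carry receptors that dampen or sharpen their response after the antigen receptor has been engaged. PD-1 (encoded by Pdcd1), CTLA-4, LAG-3, TIGIT and TIM-3 (Havcr2) are inhibitory and are displayed by activated and by persistently stimulated T cells, while ICOS is costimulatory. Their partners sit on antigen-presenting and tissue cells: PD-L1 (Cd274) and PD-L2 (Pdcd1lg2) bind PD-1, and CD80 and CD86 bind both the costimulatory receptor CD28 and CTLA-4. In the liver, resident macrophages and sinusoidal endothelial cells can display PD-L1, and the organ is known for restraining local T-cell responses.

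Promoter sequences, which show what lies at the transcription start of genes that moved together, were found in RefSeq (GRCm38.p6) for 7 of the 10 genes, namely Pdcd1, Tigit, Havcr2, Cd274, Ctla4, Cd80 and Pdcd1lg2, with none matched for Lag3, Icos and Cd86. Each runs from 250 bases before the start site to 50 bases after it, written in the direction of the gene. Shown are the promoters of the 3 genes with the largest differences (Pdcd1 at chr1:94052504-94052803 on the minus strand, Tigit at chr16:43664135-43664434 on the minus strand and Havcr2 at chr11:46454681-46454980 on the plus strand), of the most abundant member (Cd274 at chr19:29367188-29367487 on the plus strand) and of Cd80 (chr16:38458683-38458982 on the plus strand), which holds the same heptamer as Havcr2. Capitals mark a match to one of the motifs described after the sequences.
Pdcd1: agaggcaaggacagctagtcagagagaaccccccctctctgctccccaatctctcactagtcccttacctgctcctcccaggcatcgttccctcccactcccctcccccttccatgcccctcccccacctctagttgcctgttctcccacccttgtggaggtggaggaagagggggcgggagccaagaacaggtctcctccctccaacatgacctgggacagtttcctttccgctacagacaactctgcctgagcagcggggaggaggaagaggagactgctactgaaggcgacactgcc
Tigit: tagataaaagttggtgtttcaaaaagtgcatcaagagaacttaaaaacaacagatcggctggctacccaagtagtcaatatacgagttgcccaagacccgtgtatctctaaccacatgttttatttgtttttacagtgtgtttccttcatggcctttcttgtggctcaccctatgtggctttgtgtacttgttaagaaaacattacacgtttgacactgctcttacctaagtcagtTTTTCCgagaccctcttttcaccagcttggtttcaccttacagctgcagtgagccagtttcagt
Havcr2: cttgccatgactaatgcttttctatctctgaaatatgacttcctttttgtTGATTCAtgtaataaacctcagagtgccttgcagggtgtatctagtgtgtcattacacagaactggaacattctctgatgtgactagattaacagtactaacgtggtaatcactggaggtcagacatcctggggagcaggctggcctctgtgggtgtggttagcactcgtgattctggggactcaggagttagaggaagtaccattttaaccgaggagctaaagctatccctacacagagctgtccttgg
Cd274: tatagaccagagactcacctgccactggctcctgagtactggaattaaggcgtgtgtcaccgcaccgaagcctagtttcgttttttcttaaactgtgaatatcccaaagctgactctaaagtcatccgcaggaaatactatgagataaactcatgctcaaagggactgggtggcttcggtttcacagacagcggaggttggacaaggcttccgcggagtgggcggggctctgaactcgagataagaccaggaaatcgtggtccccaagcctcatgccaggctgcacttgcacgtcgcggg
Cd80: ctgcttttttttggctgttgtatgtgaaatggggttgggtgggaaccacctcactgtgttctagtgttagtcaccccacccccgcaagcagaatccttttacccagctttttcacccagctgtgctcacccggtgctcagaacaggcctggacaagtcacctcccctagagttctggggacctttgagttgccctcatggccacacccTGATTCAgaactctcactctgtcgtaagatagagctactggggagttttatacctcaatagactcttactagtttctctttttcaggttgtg
Both strands were searched for 4 short motifs of factors known to act on T-cell and interferon-response genes, and no match overlapped a match to another motif. The AP-1 motif TGANTCA occurred in 2 of the 7 promoters, as TGATTCA from -200 to -194 of the start site in Havcr2 and from -42 to -36 in Cd80, and in 7.81% of all 32851 promoters of this length. The NFAT core GGAAAA occurred in 3 of the 7, in Tigit from -14 to -9 and in Ctla4 on the opposite strand, and in Pdcd1lg2 on the gene's strand, against 23.4% of all promoters. The interferon response element (2 copies of GAAA with 2 bases between them) and the NF-kB site (GGG, then any 2 bases, then TTTCC) had no match in the 7, and were held by 3.44% and 1.63% of all promoters. The Cd80 and Ctla4 windows lie inside the gene spans given below, which come from another annotation, so the upstream ends of those spans were not searched. A match describes letters in this window only and says nothing of binding in these livers.

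Abundance was given by estimated read counts per gene, whose totals ranged from 24371461 to 32389444 per library, and levels are stated as normalised CPM, counts brought to a common library total with the trimmed-mean-of-M-values factors of edgeR. Those factors were 1.147 to 1.264 in shEif4ebp3 libraries and 0.7761 to 0.8904 in shLacZ libraries, so the groups differed in composition, and scaling by total counts alone raised the median log2 fold change of all genes by 0.567. Eif4ebp3 itself had 9.62, 13.9, 37.2 and 19.5 CPM in shEif4ebp3 livers (replicates 1 to 4), against 289, 215, 204 and 49.3 CPM in shLacZ livers. The groups did not overlap, but shLacZ replicate 4 lay closer to the knockdown libraries than to the other controls. The log2 fold change was -3.24 ± 0.53 (SE), with an adjusted p of 0.000379 in edgeR's quasi-likelihood test with Benjamini-Hochberg adjustment over the 15375 genes tested, and its exons overlap those of the readthrough gene AC115631.1. Of all genes tested 29.5% were called higher and 27.8% lower in shEif4ebp3 livers at an adjusted p under 0.05, a split that became 63.9% and 7.73% with total-count scaling.

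Transcripts of checkpoint receptors and their ligands were more abundant in shEif4ebp3 livers. Pdcd1, Tigit and Havcr2 stood 5.62-fold to 6.70-fold higher, Cd274 and Cd86 2.88-fold to 3.29-fold higher, and Lag3, Icos, Cd80 and Ctla4 2.15-fold to 2.42-fold higher. The 9 genes that could be tested were each called higher, against the 29.5% of all genes called in that direction, and 8 of the 10 had no overlap between groups with the shEif4ebp3 libraries above, as did 27.4% of all genes tested. Pdcd1, Tigit and Ctla4 passed the filter on low counts mainly through the shEif4ebp3 libraries, where 4 of 4 exceeded the limit of 0.388 CPM, against 1, 0 and 1 shLacZ libraries, so their count among the genes called is not independent support. Pdcd1lg2 exceeded that limit in no library and was not tested in this way.

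**Figure D1:**
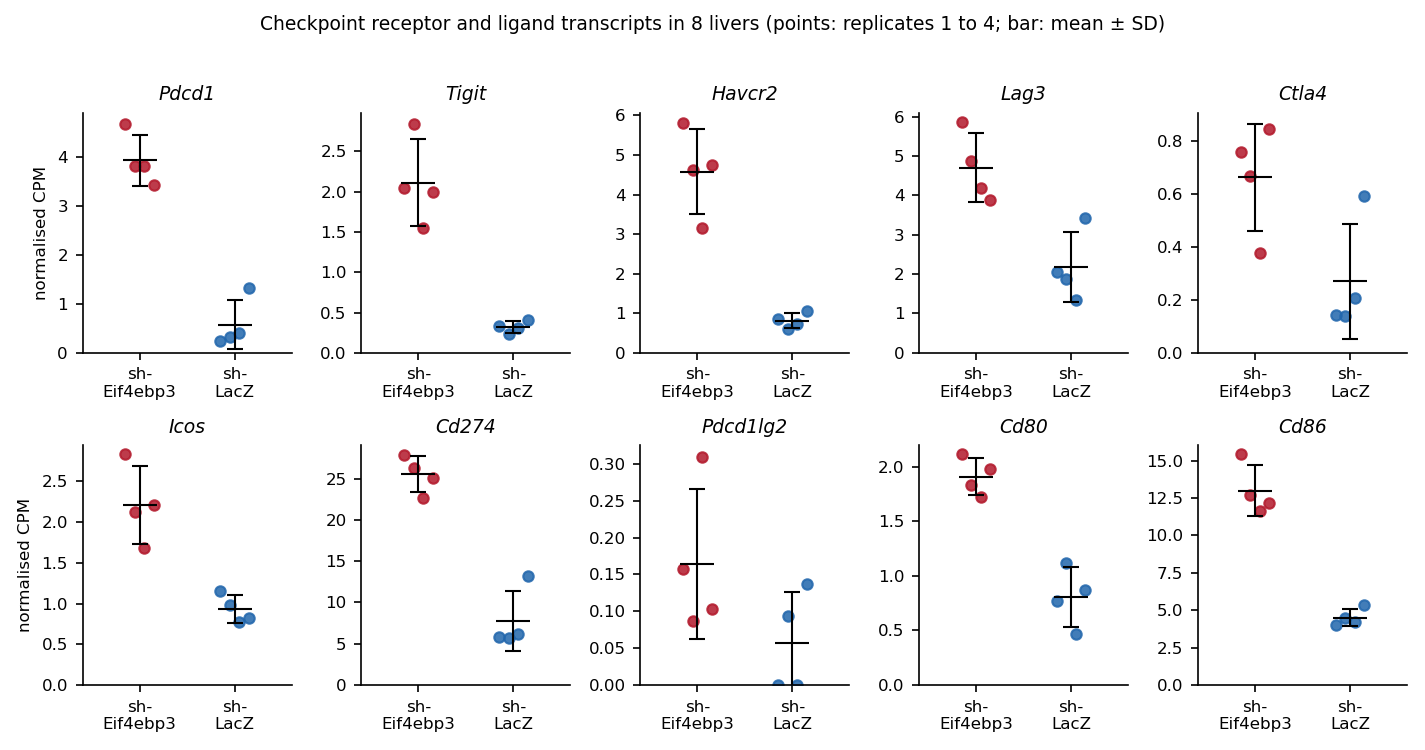
Normalised CPM of the 10 checkpoint genes in each library, with shEif4ebp3 left of shLacZ in every panel, points for replicates 1 to 4 and a bar for the mean ± SD. The groups are apart for 8 genes and overlap for Ctla4 and Pdcd1lg2, and shLacZ replicate 4 is the highest control for Pdcd1 at 1.32 CPM and for Cd274 at 13.2 CPM.

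Pdcd1 (ENSMUSG00000026285, chromosome 1, 94038305 to 94052553, minus strand, mm10) encodes PD-1, which recruits phosphatases to the antigen receptor. It had 4.67, 3.81, 3.81 and 3.43 CPM in shEif4ebp3 livers, against 0.240, 0.327, 0.411 and 1.32 CPM in shLacZ livers. Every shEif4ebp3 library lay above every control, and shLacZ replicate 4 was the highest control, with 29 counts where the other controls had 5 to 8. The means were 3.93 ± 0.522 CPM in shEif4ebp3 and 0.575 ± 0.504 CPM in shLacZ livers (SD, n = 4 each), a log2 fold change of 2.75 ± 0.41 (SE) with an adjusted p of 0.00019 in edgeR's quasi-likelihood test. Without shLacZ replicate 4 the log2 fold change was 3.57.

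Tigit (ENSMUSG00000071552, chromosome 16, 43648867 to 43664146, minus strand) encodes an inhibitory receptor of T and NK cells for the poliovirus receptor Pvr. Its levels were 2.05, 2.85, 1.55 and 2.00 CPM in shEif4ebp3 livers, against 0.336, 0.234, 0.309 and 0.411 CPM in shLacZ livers, where 5 to 9 counts underlie each value. The groups lay far apart, and the controls were close together. The log2 fold change was 2.69 ± 0.30, with an adjusted p of 2.41e-05 in the same test.

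Havcr2 (ENSMUSG00000020399, chromosome 11, 46454935 to 46481255, plus strand) encodes TIM-3, a receptor of differentiated T cells that is also found on dendritic cells and macrophages. It had 5.80, 4.62, 3.16 and 4.74 CPM in shEif4ebp3 livers, against 0.864, 0.607, 0.720 and 1.05 CPM in shLacZ livers. The lowest shEif4ebp3 library, replicate 3, stood well above the highest control. The log2 fold change of 2.49 ± 0.25 carried an adjusted p of 1.39e-05 in the quasi-likelihood test.

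Lag3 (ENSMUSG00000030124, chromosome 6, 124904361 to 124911705, minus strand) encodes a CD4-related receptor for major histocompatibility class II molecules. Levels of 5.86, 4.88, 4.19 and 3.87 CPM were found in shEif4ebp3 livers, against 2.06, 1.87, 1.34 and 3.42 CPM in shLacZ livers. The groups did not overlap, but shEif4ebp3 replicate 4 and shLacZ replicate 4 were close to each other. The log2 fold change was 1.10 ± 0.27, the smallest among the 9 tested genes, with an adjusted p of 0.00439 (edgeR).

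Ctla4 (ENSMUSG00000026011, chromosome 1, 60887000 to 60915832, plus strand) encodes the inhibitory receptor that competes with CD28 for CD80 and CD86. Its levels were 0.757, 0.668, 0.378 and 0.846 CPM in shEif4ebp3 livers, against 0.144, 0.140, 0.206 and 0.593 CPM in shLacZ livers. The groups overlapped, since shLacZ replicate 4 lay above shEif4ebp3 replicate 3. The counts were 24, 23, 11 and 33 in shEif4ebp3 libraries and 3, 3, 4 and 13 in shLacZ libraries. With a log2 fold change of 1.27 ± 0.47 and an adjusted p of 0.0376 in edgeR, the call was lost in 6 of the 8 fits that left out 1 library, and the authors' deposited table gives an adjusted p of 0.0538. Without shLacZ replicate 4 the log2 fold change was 2.01 with an adjusted p of 0.00267.

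Icos (ENSMUSG00000026009, chromosome 1, 60977927 to 61000320, plus strand), a neighbour of Ctla4, encodes the costimulatory receptor for the ligand Icosl. It had 2.84, 2.12, 1.68 and 2.20 CPM in shEif4ebp3 livers, against 1.15, 0.981, 0.771 and 0.822 CPM in shLacZ livers. No control reached the lowest shEif4ebp3 library. Its log2 fold change was 1.24 ± 0.24, with an adjusted p of 0.00112 in edgeR. The ratio of Ctla4 to Icos per kb of exon was 0.330 to 0.565 in shEif4ebp3 libraries and 0.184 to 1.06 in shLacZ libraries, so the groups overlapped in it.

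Cd274 (ENSMUSG00000016496, chromosome 19, 29367455 to 29388095, plus strand) encodes PD-L1, the ligand of PD-1. Levels were 27.8, 26.3, 22.7 and 25.1 CPM in shEif4ebp3 livers, against 5.76, 5.75, 6.17 and 13.2 CPM in shLacZ livers. The groups did not overlap, and shLacZ replicate 4 again lay above the other controls, which were nearly equal. The means were 25.5 ± 2.18 CPM in shEif4ebp3 and 7.72 ± 3.65 CPM in shLacZ livers (SD, n = 4 each). The log2 fold change was 1.72 ± 0.24 with an adjusted p of 0.000134 in edgeR, and 2.11 without shLacZ replicate 4. Its exons overlap those of AC119228.1 on the opposite strand, which held 396 counts over the shEif4ebp3 libraries and 99 over the shLacZ libraries, where Cd274 held 3429 counts over the shEif4ebp3 and 652 over the shLacZ libraries. No source used here says whether reads were counted by strand.

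Pdcd1lg2 (ENSMUSG00000016498, chromosome 19, 29410919 to 29471161, plus strand), which encodes PD-L2 and lies beside Cd274, was barely detected. It had 5, 3, 9 and 4 counts in shEif4ebp3 libraries and 0, 2, 0 and 3 counts in shLacZ libraries. As CPM these were 0.158, 0.0872, 0.309 and 0.103 in shEif4ebp3 livers, against 0, 0.0934, 0 and 0.137 in shLacZ livers, and the groups overlapped. The difference in means was 0.107 CPM, with p = 0.143 in an exact two-sided permutation test over the 8 libraries, whose smallest possible p is 0.0286. A difference was not detectable at this depth.

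Cd86 (ENSMUSG00000022901, chromosome 16, 36603869 to 36666081, minus strand) and Cd80 (ENSMUSG00000075122, chromosome 16, 38455561 to 38496335, plus strand) encode the paired ligands of CD28 and CTLA-4 on antigen-presenting cells. Cd86 had 15.4, 12.7, 11.6 and 12.1 CPM in shEif4ebp3 livers, against 3.98, 4.48, 4.22 and 5.34 CPM in shLacZ livers. Cd80 had 2.11, 1.83, 1.72 and 1.97 CPM in shEif4ebp3 livers, against 0.768, 1.12, 0.463 and 0.867 CPM in shLacZ livers. Neither gene overlapped between groups. The log2 fold change was 1.52 ± 0.14 for Cd86, with the smallest standard error of the 9, and an adjusted p of 6.89e-06 in edgeR. For Cd80 it was 1.23 ± 0.26, with an adjusted p of 0.00206. The ratio of Cd86 to Cd80 per kb of exon was 6.23 to 7.40 in shEif4ebp3 libraries, within the 4.05 to 9.22 of shLacZ libraries.

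Per kb of exon, Cd274 was the most abundant of the 10 in both groups, with 7.04 ± 0.602 CPM per kb in shEif4ebp3 and 2.13 ± 1.01 CPM per kb in shLacZ livers (SD, n = 4 each). Cd86 followed with 3.55 ± 0.466 CPM per kb in shEif4ebp3 and 1.23 ± 0.162 CPM per kb in shLacZ livers. In shEif4ebp3 livers Tigit, Lag3, Pdcd1 and Havcr2 came next at 1.68 to 2.30 CPM per kb on average, each overlapping its neighbour in that order. Icos at 0.645 and Cd80 at 0.515 CPM per kb overlapped each other, and Ctla4 at 0.284 and Pdcd1lg2 at 0.0837 CPM per kb were lowest in shEif4ebp3 livers. In shLacZ livers Lag3 at 1.03 CPM per kb overlapped Cd86 above it and Pdcd1 below it, where shLacZ replicate 4 reached 0.686 CPM per kb, while Tigit at 0.351 and the genes after it, down to Pdcd1lg2 at 0.0294 CPM per kb, each overlapped the next. The order depends on the length used: with the gene lengths in the authors' deposited table (810 bases for Icos in place of 3430), an alternative added after the levels were seen, Icos came to 2.73 CPM per kb in shEif4ebp3 and 1.15 CPM per kb in shLacZ livers, the third highest in both. Cd80 came to 1.12 CPM per kb in shEif4ebp3 and 0.473 CPM per kb in shLacZ livers, the fifth highest in shLacZ livers, above Tigit, Pdcd1 and Havcr2.

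**Figure D2:**
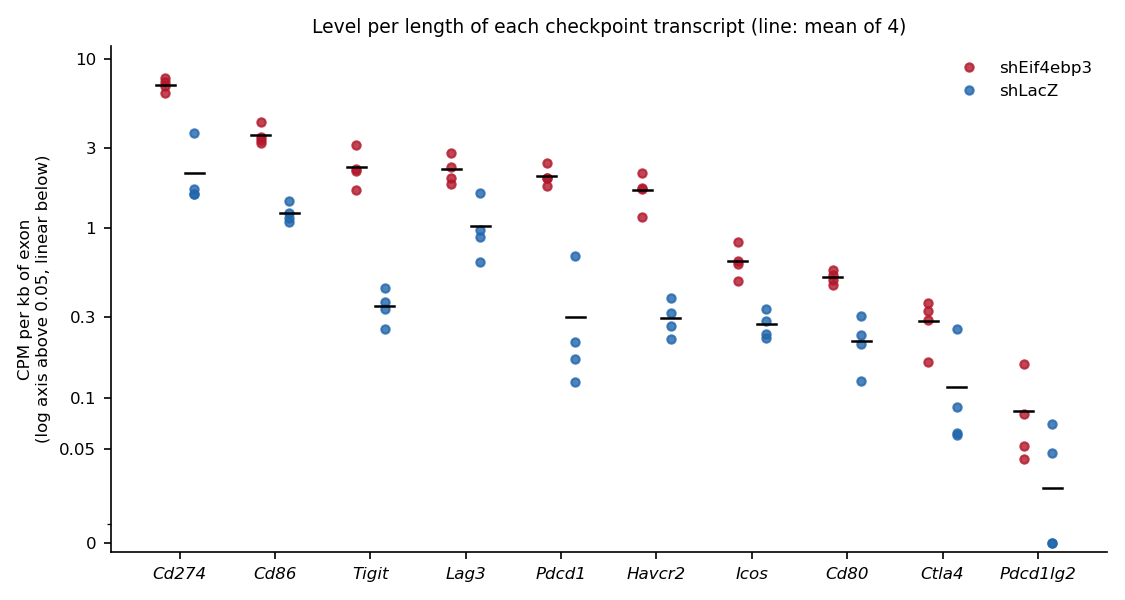
Level of each checkpoint transcript as CPM per kb of exon (log axis above 0.05, linear below) in shEif4ebp3 and shLacZ livers, with a point per library and a line at the mean of 4. Cd274 is highest and Pdcd1lg2 lowest in both groups, and in shEif4ebp3 livers Tigit, Lag3, Pdcd1 and Havcr2 lie together near 2.30 to 1.68.

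The amount of PD-L1 transcript per PD-1 transcript was lower in every shEif4ebp3 library than in any shLacZ library. Cd274 over Pdcd1, per kb of exon, was 3.18, 3.69, 3.17 and 3.90 in shEif4ebp3 libraries, against 12.8, 9.36, 7.99 and 5.31 in shLacZ libraries. The groups did not overlap, with shLacZ replicate 4 the lowest control. The control ratios rest on 5, 7, 8 and 29 Pdcd1 counts in shLacZ replicates 1 to 4. This ratio needs no scaling between libraries, and no test was run on it.

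Genes that mark T cells and macrophages moved with the checkpoint genes. Their counts stand beside 29.5% of all genes tested called higher and 27.8% lower, or 63.9% and 7.73% with total-count scaling. Of 15 T-cell markers 13 were called higher and 2 lower in shEif4ebp3 livers, and their summed level was 57.4 to 75.9 CPM in shEif4ebp3 and 24.2 to 39.5 CPM in shLacZ livers, with shLacZ replicate 4 the highest control. Cd3e, a subunit of the T-cell receptor complex, averaged 4.61 ± 0.756 CPM in shEif4ebp3 and 1.39 ± 0.494 CPM in shLacZ livers (SD, n = 4 each), and Cd8a, the cytotoxic co-receptor, had a log2 fold change of 2.15. Cd4, the helper co-receptor that mouse cells other than T cells can also carry, went the other way, with 2.07 ± 0.341 CPM in shEif4ebp3 and 6.99 ± 0.55 CPM in shLacZ livers and a log2 fold change of -1.75. Of 19 tested macrophage markers 18 were called higher and none lower, and the 20 listed summed to 1818 to 2110 CPM in shEif4ebp3 and 714 to 925 CPM in shLacZ livers. Adgre1, which encodes F4/80, averaged 88.9 ± 17.1 CPM in shEif4ebp3 and 33.4 ± 6.87 CPM in shLacZ livers, whereas Clec4f, which marks resident Kupffer cells, averaged 96.2 ± 17.1 CPM in shEif4ebp3 and 76.5 ± 17.7 CPM in shLacZ livers and was not called, though it was with total-count scaling. With total-count scaling 13 T-cell markers were called higher and 1 lower, and 19 macrophage markers higher and 0 lower. In bulk liver more cells of a type and more RNA per cell cannot be told apart.

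The other marker lists moved less evenly. Their counts stand beside 29.5% of all genes called higher and 27.8% lower, or 63.9% and 7.73% with total-count scaling. Of 11 tested dendritic-cell markers 7 were called higher and 1 lower, among them Flt3 with a log2 fold change of 1.79. Of 5 tested NK-cell markers 4 were called higher. Klrb1c was not called, at 0.16 on the log2 scale and at 0.71 with total-count scaling (adjusted p = 0.149, edgeR). Ncr1, the defining receptor, had too few counts to test at 0.119 ± 0.093 CPM in shEif4ebp3 and 0.183 ± 0.0933 CPM in shLacZ livers. Regulatory T-cell markers had 1 of 5 called higher and 2 lower. Foxp3, their defining factor, had 10, 8, 9 and 9 counts in shEif4ebp3 libraries and 2, 4, 7 and 3 counts in shLacZ libraries and was not tested. These counts are not scaled, and as normalised CPM the groups overlapped, with shLacZ replicate 3 the highest library. Il2ra, the interleukin 2 receptor subunit in that list, fell by 2.77 on the log2 scale. B-cell markers had 2 of 7 called higher, near the share of all genes, and none lower. Neutrophil markers had 1 of 6 called higher, S100a8 not among them, plasma-cell markers 0 of 5 and sinusoidal endothelial markers 0 of 10 with 2 lower. Stellate-cell markers had 8 of 12 called higher, cholangiocyte markers 3 of 6 with 1 lower, and hepatocyte markers 9 of 11 lower. Alb, the main hepatocyte transcript, was not called, with a log2 fold change of 0.04, but was called higher with total-count scaling (0.61, adjusted p = 0.00046 in edgeR). With that scaling sinusoidal endothelial markers had 3 called higher and 0 lower, regulatory T-cell markers 3 and 1, hepatocyte markers 2 and 7, cholangiocyte markers 5 and 0 and dendritic-cell markers 8 and 0, and B-cell, plasma-cell, neutrophil and stellate-cell markers had 5, 2, 2 and 10 called higher and none lower. Some of these small counts rested on 1 library: sinusoidal endothelial markers called lower numbered 6 without shEif4ebp3 replicate 1, plasma-cell markers called lower 2 without shEif4ebp3 replicate 3, and stellate-cell markers called lower 2 without shLacZ replicate 4. The 2 regulatory T-cell markers called lower became 1 in 2 leave-one-out fits, and the cholangiocyte marker called lower was lost in 5.

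To set the checkpoint genes beside T-cell RNA, the fit was repeated with each library scaled to the summed counts of the 15 T-cell markers. On that scale 6.12% of all genes were called higher and 75.8% lower. Pdcd1, Tigit, Havcr2 and Cd274 were still called higher, with log2 fold changes of 1.69 ± 0.33, 1.56 ± 0.36, 1.34 ± 0.28 and 0.63 ± 0.20 and adjusted p values from 3.7e-05 to 0.00535 in edgeR. Pdcd1 had 5.72 to 6.64 counts per 100 T-cell marker counts in shEif4ebp3 libraries and 0.990 to 3.35 in shLacZ libraries. Lag3 had a log2 fold change of -0.02 on this scale, with a 95% interval of -0.49 to 0.46. Icos lay at 0.06 (-0.54 to 0.66), Cd80 at 0.09 (-0.54 to 0.72), Ctla4 at 0.20 (-0.68 to 1.08) and Cd86 at 0.37 (-0.02 to 0.76), none of them called.

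The marker sum was not made of the same genes in both groups. Cd4 and Zap70, a kinase of the T-cell receptor, each held a smaller share of it in the knockdown, with 3.24% and 6.77% of it in shEif4ebp3 libraries, against 23.7% and 19.9% in shLacZ libraries. Zap70 was called lower at a log2 fold change of -0.42, a call lost in 6 of the 8 fits that left out 1 library and with total-count scaling. Scaling to the 3 CD3 subunits Cd3d, Cd3e and Cd3g alone, a choice made after seeing this, left 1.73% of all genes called higher and 86.3% lower. Pdcd1 was then called higher by 1.04 ± 0.41 on the log2 scale (adjusted p = 0.014, edgeR), and Lag3 was called lower, with a log2 fold change of -0.74 ± 0.35 (adjusted p = 0.04). Tigit at 0.84, Havcr2 at 0.60 and Cd274 at -0.09 were not called on the CD3 scale, with adjusted p values of 0.0819, 0.136 and 0.791. The Pdcd1 call is thus the one that all 3 T-cell scalings shared in the same direction, the third being the geometric mean over the list, where Tigit and Havcr2 were called as well and Cd274 was not. The 3 scalings use the same counts and overlapping markers, and Pdcd1 and Tigit passed the filter on low counts mainly through the shEif4ebp3 libraries. Their calls on these scales are therefore not independent support.

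The macrophage marker sum was uneven too, with 1 marker holding 36.2% of it in shEif4ebp3 and 31.9% in shLacZ libraries. Clec4f held 4.84% of it in shEif4ebp3 and 9.35% in shLacZ libraries. Relative to the 20 macrophage markers, where 5.33% of all genes were called higher and 79.3% lower, Pdcd1, Tigit and Havcr2 were called higher by 1.49 ± 0.37, 1.42 ± 0.34 and 1.21 ± 0.27 on the log2 scale (adjusted p 0.000471 to 0.00121, edgeR). Cd274, which macrophages can carry, had 0.45 ± 0.21 and an adjusted p of 0.0578. That value passed the threshold without shLacZ replicate 4, at 0.80 with an adjusted p of 0.000128. The ligands of antigen-presenting cells, Cd86 at 0.25 (95% interval -0.08 to 0.57) and Cd80 at -0.01 (-0.57 to 0.54), were not called on this scale, and neither were Ctla4 at 0.02, Icos at -0.03 and Lag3 at -0.16. The filter on low counts, which Pdcd1 and Tigit passed mainly through the shEif4ebp3 libraries, limits their calls on this scale too. What the larger T-cell and macrophage marker levels contribute to the differences in checkpoint genes was not tested beyond these scalings.

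**Figure D3:**
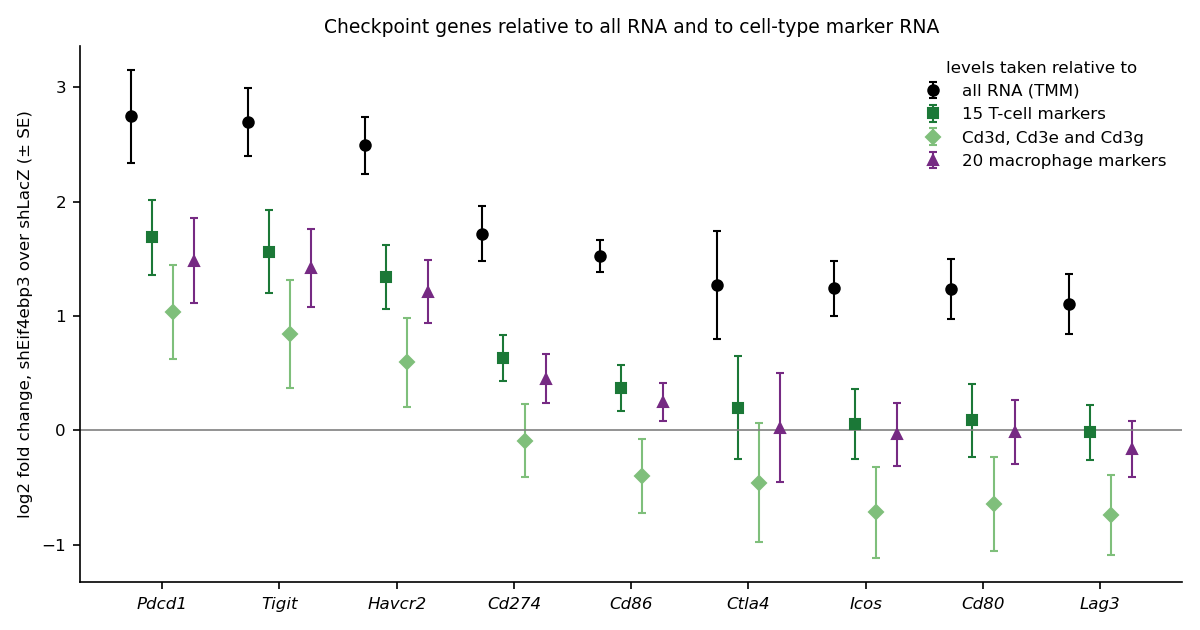
Log2 fold change of shEif4ebp3 over shLacZ livers (± SE) for the 9 checkpoint genes tested, with levels taken relative to all RNA, to T-cell markers, to the 3 CD3 subunits and to macrophage markers. Pdcd1, Tigit and Havcr2 stay above 0 on every scale. Pdcd1 lies at 2.75, 1.69, 1.04 and 1.49 and is the only one of the 9 called higher on the CD3 scale. Lag3, at 1.10 relative to all RNA, is called lower on the CD3 scale at -0.74.

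Other receptors of the same kinds were mostly higher too. Of the 85 further pathway genes that were tested, counted once each, 58 were called higher, 11 lower and 16 not at all, with a median log2 fold change of 0.96, beside -0.003 for all genes tested. The shares of all genes were 29.5% higher and 27.8% lower. With total-count scaling 74 of the 85 were called higher and 4 lower, beside 63.9% and 7.73% of all genes. Among the other inhibitory receptors 12 of 13 were called higher, none lower, with Btla not called at 0.55 but called with total-count scaling. Examples are the myeloid receptors Cd300a with a log2 fold change of 1.29, Lilrb4a with 1.22 and Lair1, a collagen receptor, with 1.55, and Vsir, which encodes VISTA, with 0.77. All 10 tested costimulatory receptors were called higher, and 7 to 9 of them when 1 library was left out. Cd28, the activating partner of CD80 and CD86, averaged 2.62 ± 0.54 CPM in shEif4ebp3 and 1.00 ± 0.176 CPM in shLacZ livers, and Cd2, Tnfrsf9 (4-1BB) and Cd27 had log2 fold changes of 1.70, 2.57 and 2.10.

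Ligands divided by gene. Of 18 tested checkpoint ligands 9 were called higher and 6 lower, with a median log2 fold change of 0.45, and with total-count scaling 12 were higher and 2 lower. The shares of all genes were 29.5% higher and 27.8% lower, or 63.9% and 7.73% with total-count scaling. Lgals3, a galectin that binds LAG-3, averaged 81.3 ± 9.88 CPM in shEif4ebp3 and 14.8 ± 3.94 CPM in shLacZ livers. Pvr, the ligand of TIGIT, had a log2 fold change of 1.33, Cd276 (B7-H3) 1.53 and Cd48, the ligand of the receptor Cd244a, 1.72. The genes called lower included Ceacam1, a partner of TIM-3 that is abundant in hepatocytes, with 83.7 ± 9.95 CPM in shEif4ebp3 and 233 ± 23.2 CPM in shLacZ livers. Fgl1, a LAG-3 ligand secreted by hepatocytes, averaged 193 ± 19.3 CPM in shEif4ebp3 and 349 ± 64.5 CPM in shLacZ livers, a log2 fold change of -0.85. Ceacam1 and Fgl1 kept their call with total-count scaling, at -0.91 and -0.28, whereas Nectin2 (-0.53), Clec4g (-0.49), Nectin3 (-0.34) and Lgals9 (-0.32) had positive log2 fold changes there, from 0.04 to 0.25, and Lgals9 was then called higher. Of 7 genes listed as costimulatory ligands 3 could be tested, and Cd40, Icosl and Cd48 were each called higher. Cd40 encodes a receptor of antigen-presenting cells and not a ligand, and Icosl and Cd48 were also counted among the checkpoint ligands above.

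PD-L1 is known to be induced by interferon gamma through JAK kinases and IRF1. Ifng, the cytokine itself, had 27, 18, 21 and 30 counts in shEif4ebp3 libraries, against 1, 0, 0 and 4 counts in shLacZ libraries, with no overlap. No overlap in this direction was found for 27.4% of all genes tested. Ifng passed the filter on low counts through the shEif4ebp3 libraries alone, so its call is not independent support. Of the 14 genes of this route, Ifng among them, 9 were called higher and 2 lower, beside 29.5% and 27.8% of all genes tested. With total-count scaling 11 were called higher and 1 lower, beside 63.9% and 7.73% of all genes. Ifngr1, the receptor, averaged 52.3 ± 2.81 CPM in shEif4ebp3 and 21.2 ± 1.36 CPM in shLacZ livers. Irf1 and Irf8, transcription factors induced by interferon, had log2 fold changes of 1.16 and 1.52, and Socs1, an inhibitor of JAK signalling, 2.11. Cmtm4 and Cmtm6, which protect the PD-L1 protein from degradation, were called lower at -0.91 and -0.32, and Cmtm6 had a positive value of 0.24 with total-count scaling.

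Genes that act below the receptors and in exhausted or activated T cells were also read from the same fit. In it 29.5% of all genes were called higher and 27.8% lower, or 63.9% and 7.73% with total-count scaling. Of 13 tested inhibitory signalling genes 6 were called higher and 3 lower, and 11 and 1 with total-count scaling. Ptpn6, which encodes the phosphatase SHP-1, had a log2 fold change of 0.64, Inpp5d (SHIP1) 1.39 and Dgkz, a diacylglycerol kinase, 0.89, whereas Dgka, its relative, fell by 1.01 on the log2 scale, and Ptpn11, which encodes SHP-2, lay at 0.02 and was not called, though it was called higher with total-count scaling at 0.59. Itch, a ubiquitin ligase, was lower at -0.62 but not called with total-count scaling (-0.047), and Csk was lower at -0.22 but higher with total-count scaling. Of 17 tested exhaustion and activation factors 12 were called higher and none lower, and 9 to 14 when 1 library was left out. Prdm1, which encodes BLIMP-1, averaged 3.98 ± 0.657 CPM in shEif4ebp3 and 1.04 ± 0.277 CPM in shLacZ livers, Tbx21 (T-bet) averaged 1.88 ± 0.544 CPM in shEif4ebp3 and 0.499 ± 0.126 CPM in shLacZ livers, and Nfatc2 and Id2 had log2 fold changes of 1.67 and 0.84. Tox, a factor of exhausted T cells, had 0.46, and Maf lay at 0.03 and was not called. With total-count scaling all 17 factors were called higher, Maf at 0.60. On the T-cell marker scale 6.12% of all genes were called higher and 75.8% lower. Of the 17 factors only Prdm1 at 0.79 and Tbx21 at 0.74 were called higher there (adjusted p = 0.00911 and 0.0476, edgeR). Those called lower included Tox at -0.70 and Maf at -1.16 (adjusted p = 0.00349 and 1.39e-05, edgeR). Nfatc2 at 0.54 and Id2 at -0.29 were not called on that scale.

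**Figure D4:**
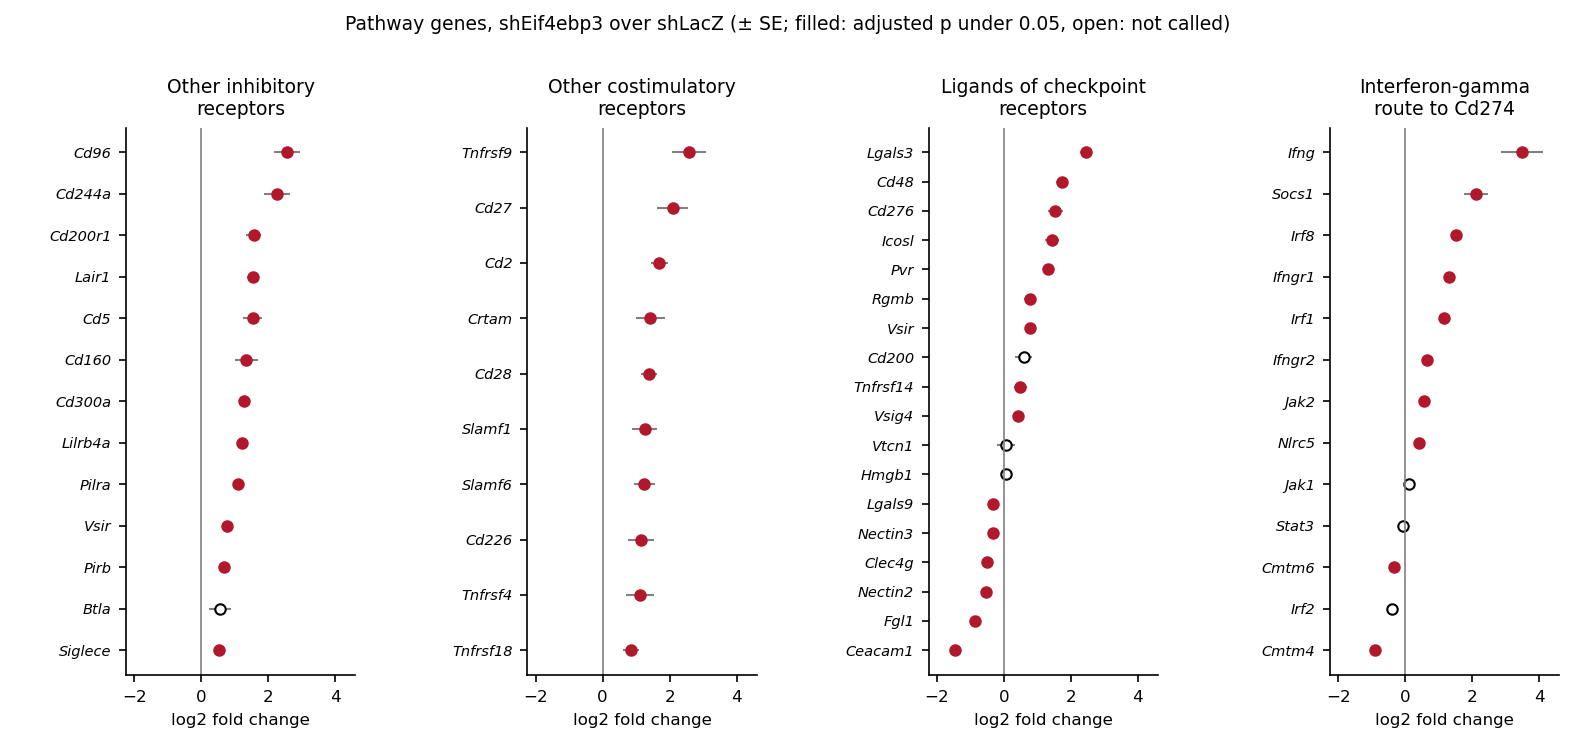
Log2 fold change of shEif4ebp3 over shLacZ livers (± SE) for pathway genes beyond the 10 members in 4 of the lists, with TMM scaling, filled points for genes called at an adjusted p under 0.05 and open points for the others. The receptors tested lie to the right of 0, whereas ligands reach both sides, with Lgals3 at 2.45 and Ceacam1 at -1.47, and Nectin2, Clec4g, Nectin3, Lgals9 and Cmtm6 move to the right of 0 with total-count scaling.

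The genes whose log2 CPM followed the mean standardised log2 CPM of the 9 tested members most closely over the 8 libraries were Map4k4, Gpr137b, Slc15a3, Cysltr1 and Ncapd2, with Pearson r of 0.998 to 0.999. This is a description of libraries that differ by group, and 2774 genes had r above 0.9.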

How the data were processed

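Liver RNA was depleted of ribosomal RNA and sequenced, per the labels. The authors deposited estimated counts per gene, not normalised, of which 10.9% were not whole numbers, and these were rounded. The submitters' processing notes name mm10 and the tools SAMtools 1.9, GATK 3.8, Bowtie2 2.2.9 and fastp 0.19.5. No source used here names the counting program, its annotation or its strandedness. The table has 56181 entries, of which 645 are assembled loci without a gene identifier (0.676 to 1.08% of a library's counts) and were left out. The authors' deposited comparison table gives a fold ratio, its log2, a p-value and an adjusted p-value per gene, as deposited.

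Columns were matched to samples by the sample codes in the labels. Counts were analysed with edgeR 4.0.16 under R 4.3.3 (filterByExpr with a minimum count of 10, TMM factors, glmQLFit and glmQLFTest, Benjamini-Hochberg adjustment over 15375 genes), with no covariate. A gene was called at an adjusted p under 0.05. The marker scalings replaced library sizes by summed marker counts. Positions and exon lengths are those of GENCODE M21. Replicates differed by more than counting error (lowest chi-square per degree of freedom 9.64). The fits were tested on simulated data with 200 genes changed, equally up and down, and with the markers used for scaling left unchanged. In these livers many more genes and the markers themselves differed, so the simulation cannot show whether the scalings suit them. Intervals on fold changes cover 95% by the normal approximation. Alternatives included DESeq2 1.42.0 and limma-voom (limma 3.58.1).

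The members and all lists were chosen with earlier results of these data known. Named genes were the 10 members, Eif4ebp3, up to 4 called genes of each pathway list by smallest p with those that complete a count, defining markers, and the 5 genes most like the members. Outside this rule, Cd276, Irf1, Socs1, Ifng, Ptpn11, Tox, Maf, Zap70, Il2ra, Klrb1c, Cd3d, Cd3g, AC119228.1 and AC115631.1 were named after their values were seen. Of the genes named, Cd3e, Cd27, Lilrb4a, Cd276, Nectin2, Clec4g, Irf1, Ifng, Dgka, Dgkz, Ptpn6, Tox, Maf and Foxp3 share exon bases with another annotated gene, so their counts are uncertain. Whether Klrb1c does is not stated here. Hhla2 and Tf had no matching entry. Values of some single genes of the lists are not reported here, nor drawn in the figures, but the genes stay in the lists' counts.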

Additional observations from a re-analysis of the deposited data

Results flagged for a closer look

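In 3 of the 22 groups of 4 libraries examined, 1 library lay farther from the others than Dixon's 95% limit, and each time it was shLacZ replicate 4. Its Pdcd1 level was 1.32 CPM, where the next highest control had 0.411 CPM. Cd274 stood at 13.2 CPM in it, against 6.17 CPM in the next control. Ctla4 stood at 0.593 CPM, against 0.206 CPM. Chance gives such a library in about 1 in 20 groups, and genes of the same libraries are not independent. The same library had the lowest Eif4ebp3 level of the controls (49.3 CPM) and the highest T-cell marker sum among them (39.5 CPM, the others 24.2 to 27.7 CPM). Whether these go together for a shared reason was not tested. The sample codes of shLacZ replicate 4 and shEif4ebp3 replicate 4 hold the letter D and the other codes the letter C. The labels do not explain the letters. In a fit of the libraries coded C alone, Pdcd1, Cd274 and Ctla4 had log2 fold changes of 3.64, 2.12 and 1.87. With all libraries these were 2.75, 1.72 and 1.27.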

How the results depend on the processing

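Over 20 alternatives, the 9 tested members were called higher in every fit except Ctla4, which lost its call in 6 leave-one-out fits and under a minimum fold of 1.5 (adjusted p = 0.146), so 8 to 9 members were called. The replicate numbers did not pair libraries (same-number correlations -0.128 to 0.148), and the fit with the replicate block called the same 9. Genes called higher numbered 9823 with total-count scaling and 2399 at a minimum fold of 1.5, and lower 1189 and 1322, the 11 lower pathway genes becoming 4 with total-count scaling. Relative to T-cell markers, 549 genes were higher with the geometric mean and 266 with CD3 subunits, where 1 member was higher and 1 lower. Signs turned there, for Cd274 from a called value and otherwise for uncalled ones: with CD3 subunits Cd274 -0.090, Ctla4 -0.46, Icos -0.72, Cd80 -0.64 and Cd86 -0.40, with the geometric mean Ctla4 -0.051, Icos -0.28 and Cd80 -0.22, and with the replicate block Lag3 0.0040. Leaving out 1 library gave Lag3 -0.14 to 0.089, Ctla4 -0.0011 to 0.72, Icos -0.14 to 0.27 and Cd80 -0.061 to 0.33. Relative to macrophage markers, the geometric mean gave Icos 0.013 and Cd80 0.035, the replicate block Cd80 0.0034, and leaving out 1 library Lag3 -0.29 to 0.11, Ctla4 -0.24 to 0.73, Icos -0.14 to 0.11 and Cd80 -0.15 to 0.12. There Cd274 passed the threshold with the geometric mean (0.52, adjusted p = 0.0229) and the replicate block (0.53, adjusted p = 0.00994). The causes were not tested. Among tested members the standard error was largest for Ctla4 (0.47) and Pdcd1 (0.41).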
